A study of Mus musculus with 4 samples.

Results

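Vitamin A reaches tissues as retinol and is turned into retinoic acid, a small signal that enters the nucleus. The genes described here are 7 genes of that route, Rbp4, Aldh1a1, Aldh1a2, Aldh1a3, Cyp26b1, Rarb and Rarg, of the 31053 genes in the count matrices. They were chosen by symbol from a list proposed after earlier results of the same data were known, results that included levels in cell classes and differences between groups. Their levels and fold changes are therefore given as a description, with standard errors and without p-values.

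The platform was 10x Genomics single-cell RNA sequencing, used on stroma-enriched cells of the submandibular salivary gland from female C57BL6/J mice, after beads against EpCAM and Ter119, meant to remove epithelial and red blood cells. In the deligated group (2 libraries, mice 14 weeks old) a metal clip closed the main ducts for 14 days and was then taken off for 5 days. The homeostatic group (2 libraries, mice 12 weeks old) had no surgery. Age and surgery cannot be told apart in this design. The number of animals behind each library is not given, so the spread between libraries may be partly technical.

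Retinol travels in blood bound to Rbp4 and inside cells is oxidised first to retinal and then, irreversibly, to retinoic acid. The last step is carried out by the retinaldehyde dehydrogenases Aldh1a1, Aldh1a2 and Aldh1a3, whereas Cyp26b1, a cytochrome P450, breaks retinoic acid down and so limits where it can act. Retinoic acid binds the nuclear receptors Rara, Rarb and Rarg, which pair with retinoid X receptors on response elements in DNA. Rarb is a textbook target of the signal as well as a receptor for it.

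In GENCODE M21 on GRCm38, Rarb (ENSMUSG00000017491, chromosome 14, 16430839 to 16819156, minus strand) had 383 kb of intron, and Aldh1a1 (ENSMUSG00000053279, chromosome 19, 20492715 to 20643465, plus strand) had 146 kb. Aldh1a2 (ENSMUSG00000013584, chromosome 9, 71215789 to 71296243, plus strand) had 78.2 kb, and Aldh1a3 (ENSMUSG00000015134, chromosome 7, 66390890 to 66427517, minus strand) had 32.0 kb. The other 3 genes had less intron. Rarg (ENSMUSG00000001288, chromosome 15, 102234938 to 102257517, minus strand) had 18.3 kb, Cyp26b1 (ENSMUSG00000063415, chromosome 6, 84571414 to 84593908, minus strand) had 17.1 kb, and Rbp4 (ENSMUSG00000024990, chromosome 19, 38116629 to 38125281, minus strand) had 7.31 kb. Rarb lies in the 98.8th percentile of intron length among annotated genes and Cyp26b1 in the 62.2nd. Annotated genes on the opposite strand overlap Aldh1a1 (C730002L08Rik) and Rarb (Gm48162 and Top2b), and whether counting used strand is not given in the sources used here.

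Promoter windows of 250 bases before to 50 bases after a start site were taken from RefSeq (GRCm38.p6), which held 9 windows for 6 of the 7 genes and none for Aldh1a3. They were searched on both strands for the 2 classical retinoic acid response elements, direct repeats of a hexamer half-site with a spacer of 5 bases (DR5) or 2 bases (DR2). The single match was a DR5 in the Rarb window, in capitals. It lies at chr14:16575513-16575529 on the strand of the gene, 53 to 37 bases before the start site. That start site, 16575476, lies inside the annotated gene, which begins at 16819156 on its strand. None of the 9 windows covers that outer end. The 383 kb of intron given for Rarb is that of the whole annotated gene. Over all 32851 windows, 0.323% held a DR5 and 0.472% a DR2. The windows of Rarb (chr14:16575427-16575726, minus strand) and of Cyp26b1 (chr6:84593761-84594060, minus strand) are shown because both genes were lower in the same cell classes of the deligated libraries.
Rarb: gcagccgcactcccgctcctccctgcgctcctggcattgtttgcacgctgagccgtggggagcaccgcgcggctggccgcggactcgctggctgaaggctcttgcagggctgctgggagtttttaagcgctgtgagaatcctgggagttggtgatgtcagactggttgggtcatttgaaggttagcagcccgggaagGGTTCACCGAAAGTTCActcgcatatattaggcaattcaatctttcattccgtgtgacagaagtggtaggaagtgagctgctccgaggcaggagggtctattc
Cyp26b1: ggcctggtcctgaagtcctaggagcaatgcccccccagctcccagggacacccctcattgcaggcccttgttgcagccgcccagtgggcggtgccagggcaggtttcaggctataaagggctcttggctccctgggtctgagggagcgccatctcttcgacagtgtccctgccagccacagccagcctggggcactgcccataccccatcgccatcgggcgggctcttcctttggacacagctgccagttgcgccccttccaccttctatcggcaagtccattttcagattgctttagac
A match to the element is a description of these letters, and a window without one says only that these letters are not in it.

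The libraries held between 35662241 and 53898793 UMIs (unique molecular identifiers, which count captured transcripts), and 33695 of their cells were retained. Pairs of libraries shared between 12 and 39 cell barcodes. Median UMIs per retained cell were 6034 and 5211 in the deligated libraries and 2968 and 2830 in the homeostatic ones. Cells were grouped without the retinoid genes into 33 clusters, 7 of which stayed unnamed, and each named class is called by resemblance. Endothelial-like cells numbered 1897 and 3136 in the deligated and 3462 and 3446 in the homeostatic libraries, and fibroblast-like cells 359 and 735 against 293 and 287. In both classes every marker of the class had UMIs in all 4 libraries. Epithelial-like cells were still 1.12% and 1.69% of retained cells in the deligated and 29.6% and 31.9% in the homeostatic libraries, and erythroid-like cells between 0.482% and 1.46%. Within a class, different clusters held most cells of each group: clusters 6 (deligated) and 19 (homeostatic) for endothelial-like, 3 and 30 for fibroblast-like, 0 and 23 for NK/innate lymphoid-like, and 2 and 31 for T cell-like cells. The matrix headers name Cell Ranger 6.0.1 for the deligated and 7.0.0 for the homeostatic libraries, so the version and the group cannot be told apart. The later version counts reads in introns by default and the earlier one does not, and which setting was used is not given in the sources used here. Fold changes of the 7 genes are therefore also given with the trend over intron length removed (corrected for intron length).

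The 7 genes sorted into different cell classes, with Cyp26b1 and Rarg mainly in endothelial-like and Aldh1a1 and Rbp4 mainly in fibroblast-like cells. Endothelial-like cells gave 70.5% and 81.1% of all Cyp26b1 UMIs in the deligated libraries and 91.3% and 94.1% in the homeostatic libraries. They also gave between 73.8% and 79.9% of Rarg UMIs in each library. Fibroblast-like cells gave 84.6% and 80.8% of Aldh1a1 UMIs in the deligated and 52.9% and 52.6% in the homeostatic libraries, and every Rbp4 UMI in 3 of the 4 libraries. Rarb was divided between fibroblast-like cells (49.5%, 62.4%, 36.4% and 30.7%, in the order deligated 1, deligated 2, homeostatic 1, homeostatic 2) and endothelial-like cells (28.2%, 20.6%, 48.8% and 53.0%). These shares depend on how many cells of each class a library held, whereas the levels below, in CPM (counts scaled to 1000000 UMIs of a class), do not. Levels are compared within a gene only, since CPM is not scaled to gene length.

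**Figure D1:**
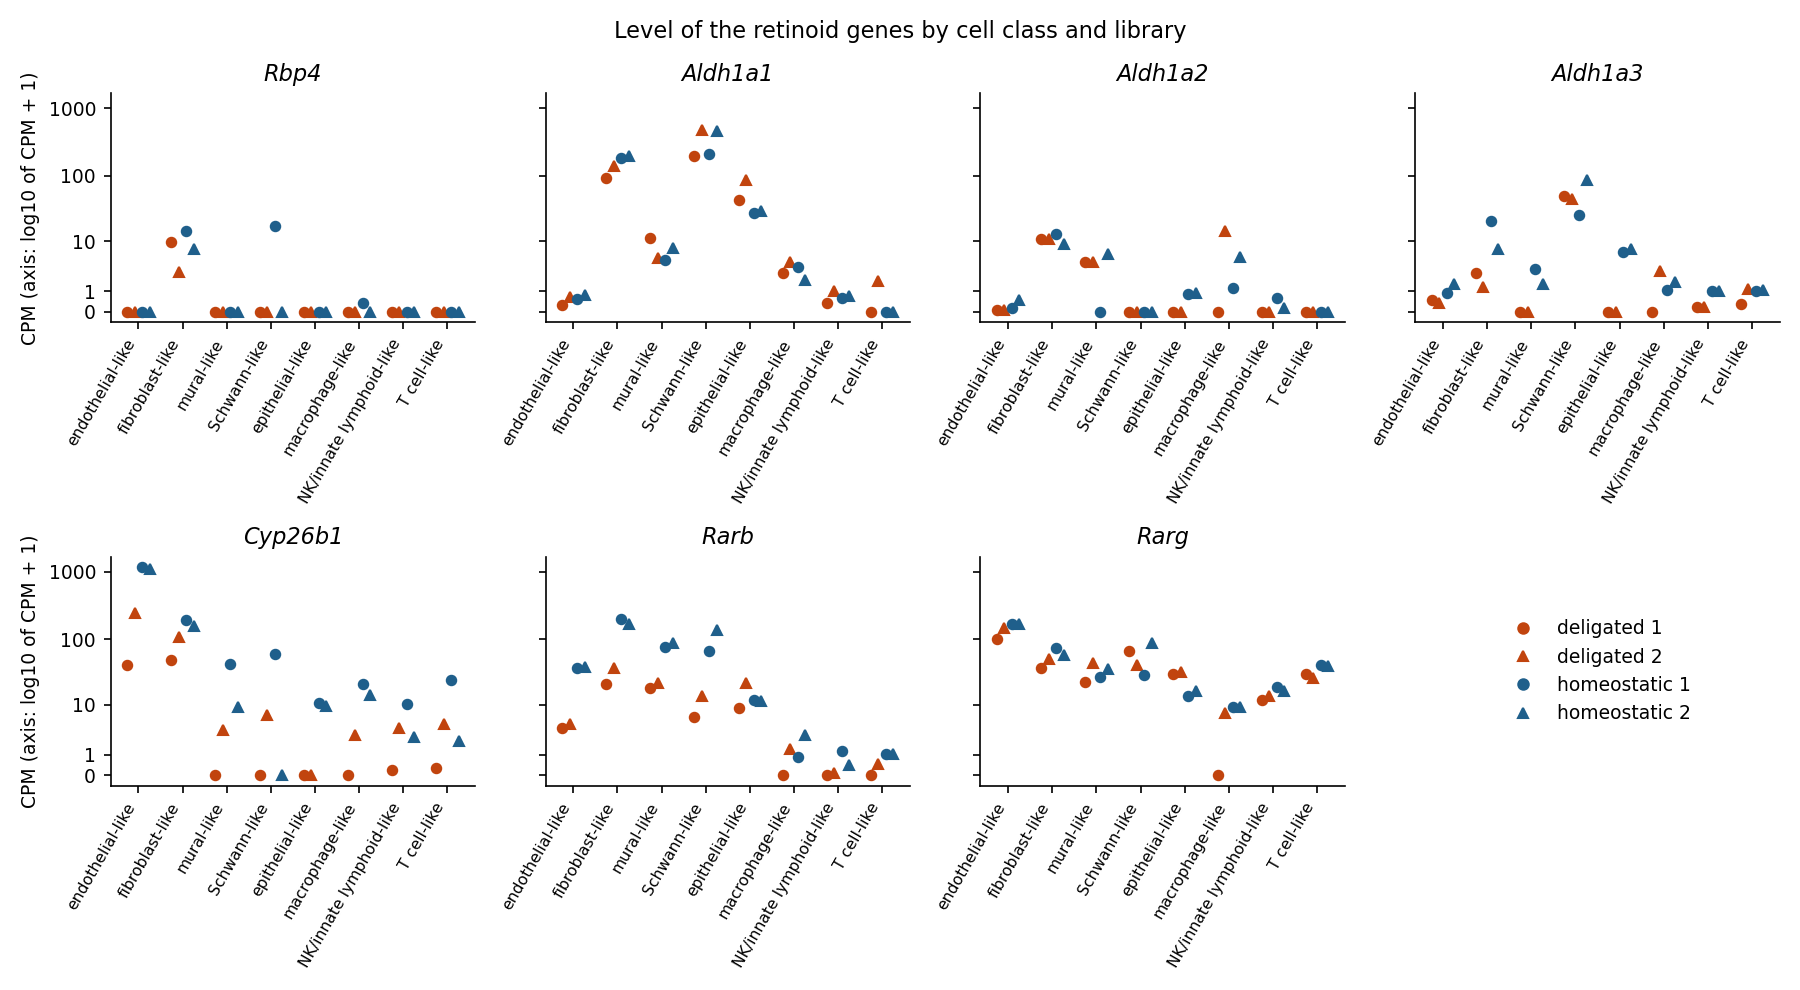
CPM of each of the 7 genes (axis on the scale log10 of CPM + 1) in 8 cell classes, 1 point per library, deligated in orange and homeostatic in blue. Cyp26b1 stands highest in endothelial-like cells of the homeostatic libraries (1151 and 1076 CPM), Aldh1a1 in Schwann-like and fibroblast-like cells, and Rarb in homeostatic fibroblast-like cells.

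Rbp4, the retinol carrier, was scarce, with 116 UMIs over 61 of the retained cells. In fibroblast-like cells it stood at 9.81 and 2.84 CPM in the deligated and 14.3 and 7.34 CPM in the homeostatic libraries. The groups overlapped, and the log2 fold change was -0.76 (SE 0.57), or -1.90 without deligated library 1 and -0.02 without deligated library 2. Corrected for intron length it was -0.98 (SE 0.57). A few cells carried much of the signal: in homeostatic library 1 a single fibroblast-like cell held 18 of the 28 UMIs, and in deligated library 1 a single cell held 13 of 47. No UMI of Rbp4 was seen in endothelial-like cells of any library, which in the largest set, 3413 cells thinned to 1000 UMIs each, limits the share of cells with a UMI by counting error alone to 0.0879%.

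Aldh1a1, the first of the retinoic acid-forming enzymes, was highest in Schwann-like cells (the glia of peripheral nerves), at 195 and 473 CPM in the deligated and 208 and 451 CPM in the homeostatic libraries. These values rest on 28, 61, 45 and 39 cells and spread widely within both groups. Summed fibroblast markers in the same cells were 4405 and 3131 against 609 and 1475 CPM, with 2 to 5 of the 9 at 0, and their part was not tested. Fibroblast-like cells came next, with 90.8 and 138 CPM against 185 and 195 CPM. Both deligated values lay below both homeostatic values, and the log2 fold change was -0.68 (SE 0.18). Beside this value stands the gene's intron length: all genes in the same quintile of intron length had a median log2 fold change of -0.79 in this class, and with the trend over intron length removed Aldh1a1 stood at 0.19 (SE 0.18). The direction for Aldh1a1 in fibroblast-like cells therefore depends on that correction. The correction used the intron length of the whole annotated gene, and RefSeq also gives a start site at 20601968, inside it. Transcripts from that start hold less intron, and their share was not measured.

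Epithelial-like cells, which the beads were meant to remove, had 43.2 and 86.3 CPM of Aldh1a1 in the deligated and 27.3 and 29.8 CPM in the homeostatic libraries. Within them a small cluster with 5 of the 6 basal and myoepithelial markers (Krt5, Krt14, Trp63, Acta2 and Cnn1) reached 274 and 210 CPM in the homeostatic libraries, in 45 and 63 cells. Endothelial-like cells had at most 0.767 CPM in any library. Mural-like cells, which wrap vessels, had 11.01 and 5.22 against 4.83 and 7.64 CPM, with overlapping groups and a log2 fold change of 0.36 (SE 0.64), or 0.96 (SE 0.62) corrected for intron length.

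Aldh1a2, which forms much of the retinoic acid of the embryo, was scarce. Its mean was highest in fibroblast-like cells, at 10.9 and 10.8 CPM in the deligated and 12.7 and 8.92 CPM in the homeostatic libraries. The groups overlapped and the log2 fold change was 0.05 (SE 0.29), or 0.50 (SE 0.29) corrected for intron length. Macrophage-like cells had 0 and 14.6 CPM in the deligated and 1.24 and 5.41 CPM in the homeostatic libraries, from 0, 10, 7 and 28 UMIs, and 8 of the 10 in deligated library 2 lay in 1 cell. In homeostatic library 2 they gave 41.2% of the Aldh1a2 UMIs, against 25.0% from fibroblast-like cells. Mural-like cells had 4.40 and 4.42 against 0 and 6.12 CPM, and the ranges of the 2 classes overlapped. In endothelial-like cells it had 1, 1, 2 and 7 UMIs in the 4 libraries.

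Aldh1a3, the third of these enzymes, was at 48.9 and 44.2 CPM in deligated and 26.0 and 86.7 CPM in homeostatic Schwann-like cells, from 8 to 13 UMIs a library. Its highest level of all was in an unnamed cluster led by Ascl3 and Foxi1, transcription factors known from ion-transporting duct cells, with 330 and 368 CPM in the homeostatic libraries over 309 and 290 cells. That cluster held 0 and 9 cells in the deligated libraries, so no comparison between groups was made in it. Aldh1a3 was itself among the cluster's leading genes, although it had been left out of the clustering. Aldh1a1 was also present there, at 134 and 211 CPM.

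In fibroblast-like cells Aldh1a3 was at 2.71 and 1.35 CPM in the deligated and 20.9 and 7.34 CPM in the homeostatic libraries, a log2 fold change of -2.78 (SE 0.55). The groups did not overlap, but the counts were 13 and 9 against 41 and 14 UMIs, and without homeostatic library 1 the value was -1.83. Corrected for intron length it was -2.69 (SE 0.55). In endothelial-like cells it was at 0.479 and 0.348 against 0.894 and 1.53 CPM, from 7, 6, 13 and 22 UMIs, with a log2 fold change of -1.53 (SE 0.47), or -1.50 (SE 0.47) corrected. Summed epithelial markers were 2.26 and 5.85 against 40.6 and 44.8 CPM in endothelial-like cells (3, 2, 0 and 0 of the 13 at 0) and 4.59 and 8.07 against 51.5 and 41.4 CPM in fibroblast-like cells (3 or 4 of the 13 at 0). Their part in the Aldh1a3 values was not tested.

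Fibroblast-like cells were then divided by whether they held a UMI of Pi16 or Dpp4, markers of the adventitial fibroblasts that surround larger vessels. Cells were not thinned for this. Median UMIs per cell were 13093 and 9256 in the deligated and 6668 and 6575 in the homeostatic libraries. Depth therefore bears on which cells fall on either side, and the sides may not hold like cells in both groups. Aldh1a3 lay almost wholly on one side in the homeostatic libraries, with 123 and 39.7 CPM in the 41 and 40 cells with a UMI of either gene against 0.611 and 0.634 CPM in the 252 and 247 cells without. Those levels came from 15 and 7 cells with an Aldh1a3 UMI, against 1 and 1 among the cells without. In the deligated libraries the 148 and 235 cells with either marker had 4.37 and 0.851 CPM, below the homeostatic cells with either marker. The cells without the markers lay the other way, at 1.47 and 1.61 CPM in the deligated libraries against the 0.611 and 0.634 CPM above, from 4 and 7 against 1 and 1 UMIs. Aldh1a2 was higher on the Pi16 or Dpp4 side in both deligated libraries, 20.4 and 17.5 against 3.66 and 7.14 CPM. In the homeostatic libraries it was at 55.3 against 4.28 CPM in the first and at 6.10 against 9.50 CPM in the second, with 13 of the 18 UMIs of the first in a single cell. Cyp26b1 was lower on the Pi16 or Dpp4 side, though by little in homeostatic library 2. The values were 30.1 against 63.4, 91.1 against 114, 76.8 against 212 and 149 against 158 CPM in deligated 1, deligated 2, homeostatic 1 and homeostatic 2. The 76.8 and 149 CPM came from 25 and 49 UMIs in 6 and 11 cells, with 11 and 18 UMIs in a single cell. Rbp4 was at 12.6 against 7.69, 3.83 against 2.30, 58.3 against 5.50 and 6.10 against 7.60 CPM in the same order, and 18 of the 19 UMIs behind the 58.3 lay in 1 cell. Rarb, Rarg and Aldh1a1 differed by less than 1.5 times between the sides in every library.

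**Figure D2:**
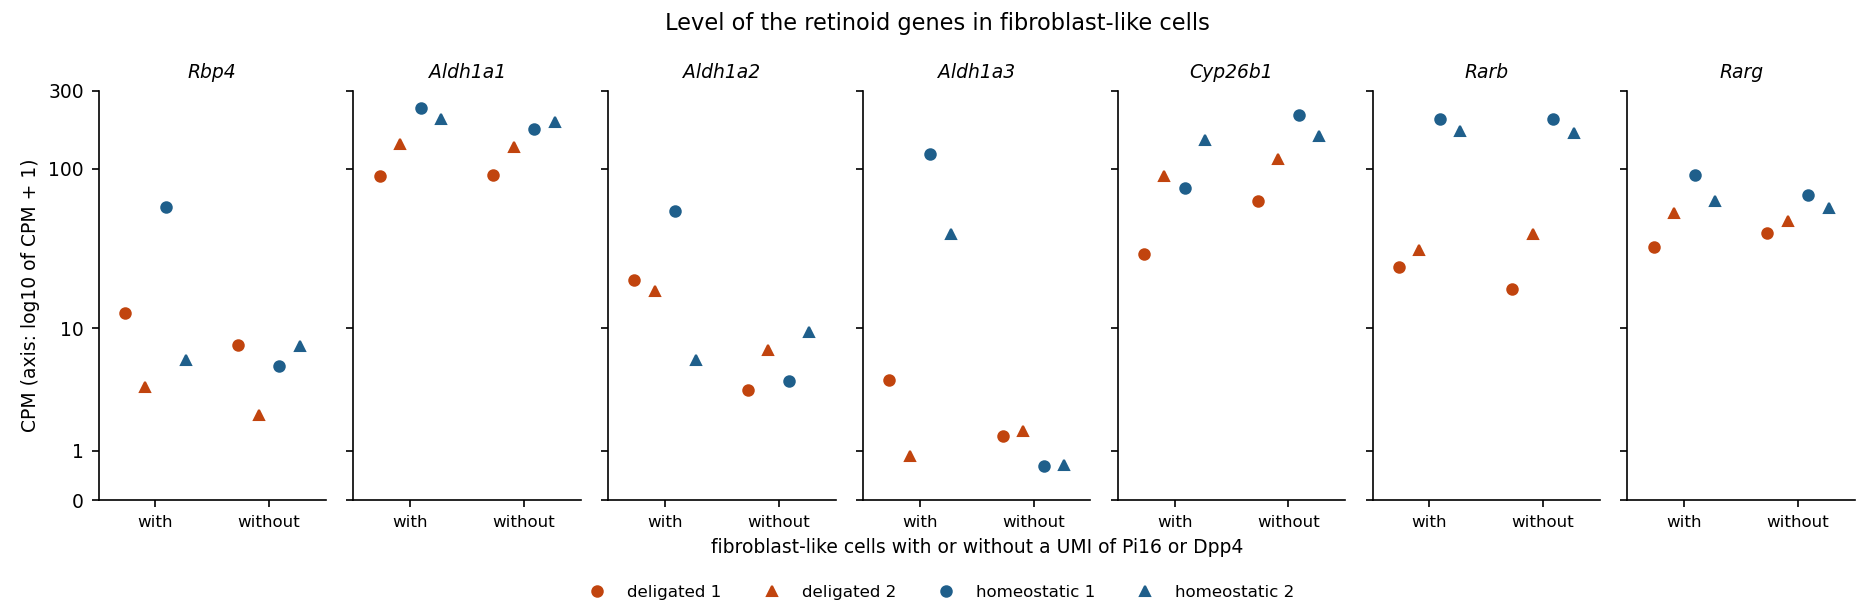
CPM of the 7 genes (axis on the scale log10 of CPM + 1) in fibroblast-like cells with and without a UMI of Pi16 or Dpp4, 1 point per library. Aldh1a3 in the homeostatic libraries (blue) stands at 123 and 39.7 CPM with the markers and near 0.6 CPM without them.

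Cyp26b1, the enzyme that clears retinoic acid, was an endothelial gene with a large gap between groups. In endothelial-like cells it was at 40.7 and 242 CPM in the deligated libraries, from 595 and 4181 UMIs, and at 1151 and 1076 CPM in the homeostatic libraries, from 16745 and 15439 UMIs. Both deligated libraries lay below both homeostatic libraries, and they also differed from each other far more than the homeostatic pair did. The log2 fold change was -2.98 (SE 0.71). It was -2.23 without deligated library 1 and -4.69 without deligated library 2. Removing the intron-length trend left it at -3.05 (SE 0.71), since genes in the same quintile of intron length had a median of 0.05.

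The gap showed in how many cells carried the transcript and in how much each carried. After every cell was thinned to 1000 UMIs, 3.70% and 17.5% of deligated and 37.2% and 36.3% of homeostatic endothelial-like cells had a Cyp26b1 UMI. The exact 95% intervals were 2.89 to 4.66%, 16.2 to 18.9%, 35.6 to 38.9% and 34.7 to 37.9%, for counting error only. Without thinning the shares were 16.3%, 46.2%, 56.3% and 54.1%, at median depths of 5838, 4458, 3688 and 3687.5 UMIs. NK/innate lymphoid-like cells, taken as a class that should lack the gene, had thinned shares of 0.113%, 0.288%, 0.594% and 0.0952%, so the endothelial shares stood well above that level in all 4 libraries. Endothelial-like cells with the transcript held on average 1.92 and 2.89 UMIs each in the deligated pair of libraries and 8.59 and 8.28 each in the homeostatic pair.

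Both deligated libraries were lower in the venous-marker cluster, in the arterial-marker clusters and in the largest clusters. Cluster 8, with all 6 venous markers, held cells of all 4 libraries and had 22.4 and 118 CPM against 392 and 350 CPM. The arterial-marker clusters 11 (deligated) and 29 (homeostatic) had 10.7 and 54.8 against 575 and 509 CPM. The largest clusters, 6 (deligated, led by Hlx and Aplnr) and 19 (homeostatic, with Cyp26b1 among its leading genes), had 47.1 and 271 against 1272 and 1185 CPM. Cluster 21, led by interferon-response genes such as Ifit2 had 1271 and 1232 CPM in the homeostatic libraries, and with 0 and 1 deligated cells it allowed no comparison. Clusters with arterial or venous markers thus had lower levels than the largest cluster of their own group in every library. The ratio of deligated library 2 to library 1 was 5.75 in cluster 6, 5.28 in cluster 8 and 5.14 in cluster 11. The summed endothelial markers of the 2 libraries were close by comparison, 13779 and 14903 CPM.

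**Figure D3:**
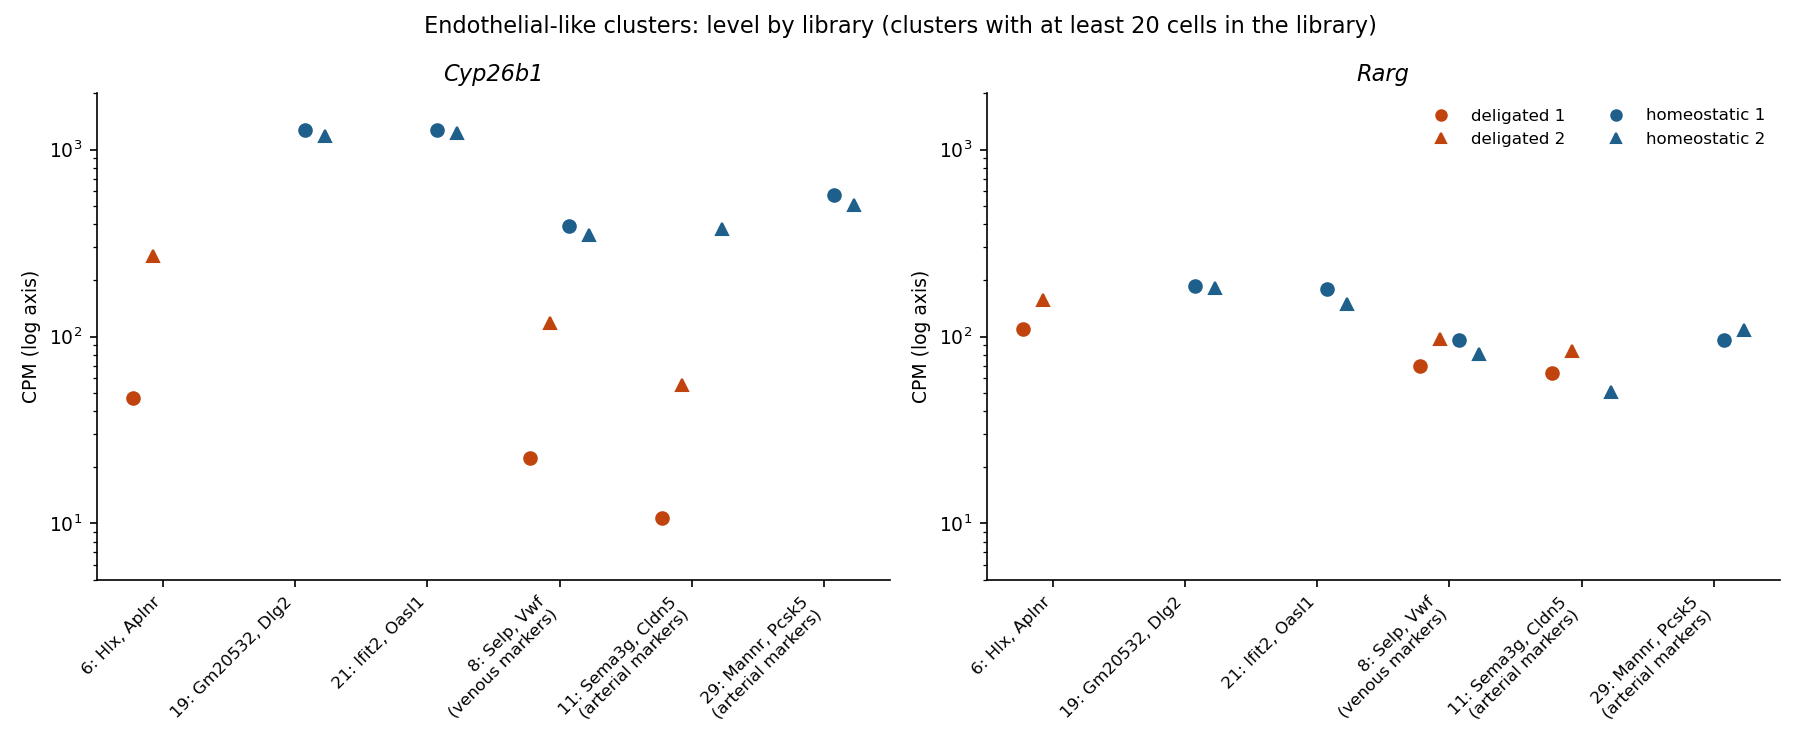
CPM of Cyp26b1 and Rarg (log axes) in 6 endothelial-like clusters, 1 point per library, for libraries with at least 20 cells in the cluster. Cyp26b1 is lowest in deligated library 1 and highest in the homeostatic libraries, whereas Rarg lies between 50.5 and 186 CPM throughout.

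Fibroblast-like cells carried Cyp26b1 at 49.1 and 106 CPM in the deligated and 190 and 157 CPM in the homeostatic libraries. The groups did not overlap and the log2 fold change was -1.10 (SE 0.27), or -1.18 (SE 0.27) with the intron-length trend removed. It was -1.70 without deligated library 2 and -0.68 without deligated library 1. In deligated library 1 the level was similar to that of endothelial-like cells of the same library (40.7 CPM), while in the homeostatic libraries endothelial-like cells were several-fold higher. Summed endothelial markers in fibroblast-like cells were 67.2 and 187 CPM in the deligated and 163 and 185 CPM in the homeostatic libraries, all 9 with UMIs except 1 at 0 in deligated library 1. In endothelial-like cells the same sum was between 13757 and 14903 CPM. Erythroid-like cells showed Cyp26b1 at 51.6 and 170 against 484 and 231 CPM, with summed endothelial markers of 9443 and 7407 against 3835 and 3553 CPM. The part of endothelial RNA in these values was not tested.

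Mural-like cells held 0 and 9 Cyp26b1 UMIs (deligated) against 26 and 6 (homeostatic), or 0 and 3.61 against 41.8 and 9.17 CPM. The 26 UMIs lay in 5 cells. The fitted log2 fold change of -3.69 (SE 0.92), or -3.82 (SE 0.91) corrected for intron length, rests on these counts and moved to -1.59 when doublets were kept. It was -2.82 without deligated library 1, -7.87 without deligated library 2, -2.31 without homeostatic library 1 and -4.41 without homeostatic library 2. In NK/innate lymphoid-like and T cell-like cells the groups overlapped (0.177 and 3.91 against 10.3 and 2.68 CPM, and 0.295 and 4.76 against 23.9 and 2.17 CPM). The log2 fold changes were -1.29 (SE 0.81) and -2.14 (SE 1.05), or -1.39 and -2.27 corrected, and leaving out 1 library at a time they ranged from -4.90 to -0.13 and from -5.03 to 0.39. The lowest values came without deligated library 2 and the highest without homeostatic library 1. The higher homeostatic library was the first in both classes, as it was for summed endothelial markers, at 273 against 147 CPM in NK/innate lymphoid-like and 351 against 84.8 CPM in T cell-like cells. Their part in the Cyp26b1 values was not tested. Macrophage-like cells had 0 and 2.93 against 21.1 and 14.3 CPM, and epithelial-like cells 0 and 0 against 10.5 and 9.50 CPM. These 2 classes were not fitted, since they held only 57 and 49 cells in deligated library 1.

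Rarb, the retinoic acid receptor that retinoic acid itself induces, was highest in fibroblast-like cells. It was at 20.9 and 36.8 CPM in the deligated and 202 and 166 CPM in the homeostatic libraries, with no overlap and a log2 fold change of -2.61 (SE 0.22). In mural-like cells it was at 18.1 and 21.7 against 75.6 and 87.1 CPM, a log2 fold change of -2.03 (SE 0.22). Summed fibroblast markers in mural-like cells were 1270 and 1179 against 587 and 520 CPM, with 0, 0, 3 and 2 of the 9 at 0, and summed erythroid markers reached 5849 CPM in deligated library 2 against 34.4 to 140 CPM in the others. Their part was not tested. Here the pericyte-marker cluster stood above the smooth muscle-marker cluster in every library, with 30.8, 39.4, 155 and 172 CPM against 10.5, 11.4, 41.4 and 62.9 CPM. Endothelial-like cells had 3.90 and 4.69 against 36.6 and 38.0 CPM, a log2 fold change of -3.09 (SE 0.12).

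The order of classes for Rarb in the homeostatic libraries was fibroblast-like (184 ± 25.8 CPM, SD, n = 2), Schwann-like (103 ± 51.2), mural-like (81.4 ± 8.15), endothelial-like (37.3 ± 1.00) and epithelial-like (11.6 ± 0.149). Schwann-like and mural-like cells, neighbours in that order, did not differ beyond their spread. In the deligated libraries fibroblast-like (28.8 ± 11.2) and mural-like cells (19.9 ± 2.57) led and did not differ beyond their spread either. Schwann-like cells had 6.11 and 13.6 CPM in the deligated against 66.3 and 139 CPM in the homeostatic libraries, from 1, 4, 23 and 16 UMIs. Lymphoid and macrophage-like cells had at most 2.90 CPM in any library.

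Rarb carries by far the most intron of the 7, and genes of its quintile of intron length had median log2 fold changes of -0.55 (endothelial-like), -0.79 (fibroblast-like) and -0.54 (mural-like). That quintile begins at 63.0, 69.6 and 69.3 kb in these classes, far below the 383 kb of Rarb, so its medians understate the trend at that length. With the trend removed Rarb stood at -1.69 (SE 0.12), -0.87 (SE 0.22) and -0.73 (SE 0.22) in the same classes. It was lower in deligated cells with and without the correction, and in all 3 classes the difference was smaller with it.

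**Figure D4:**
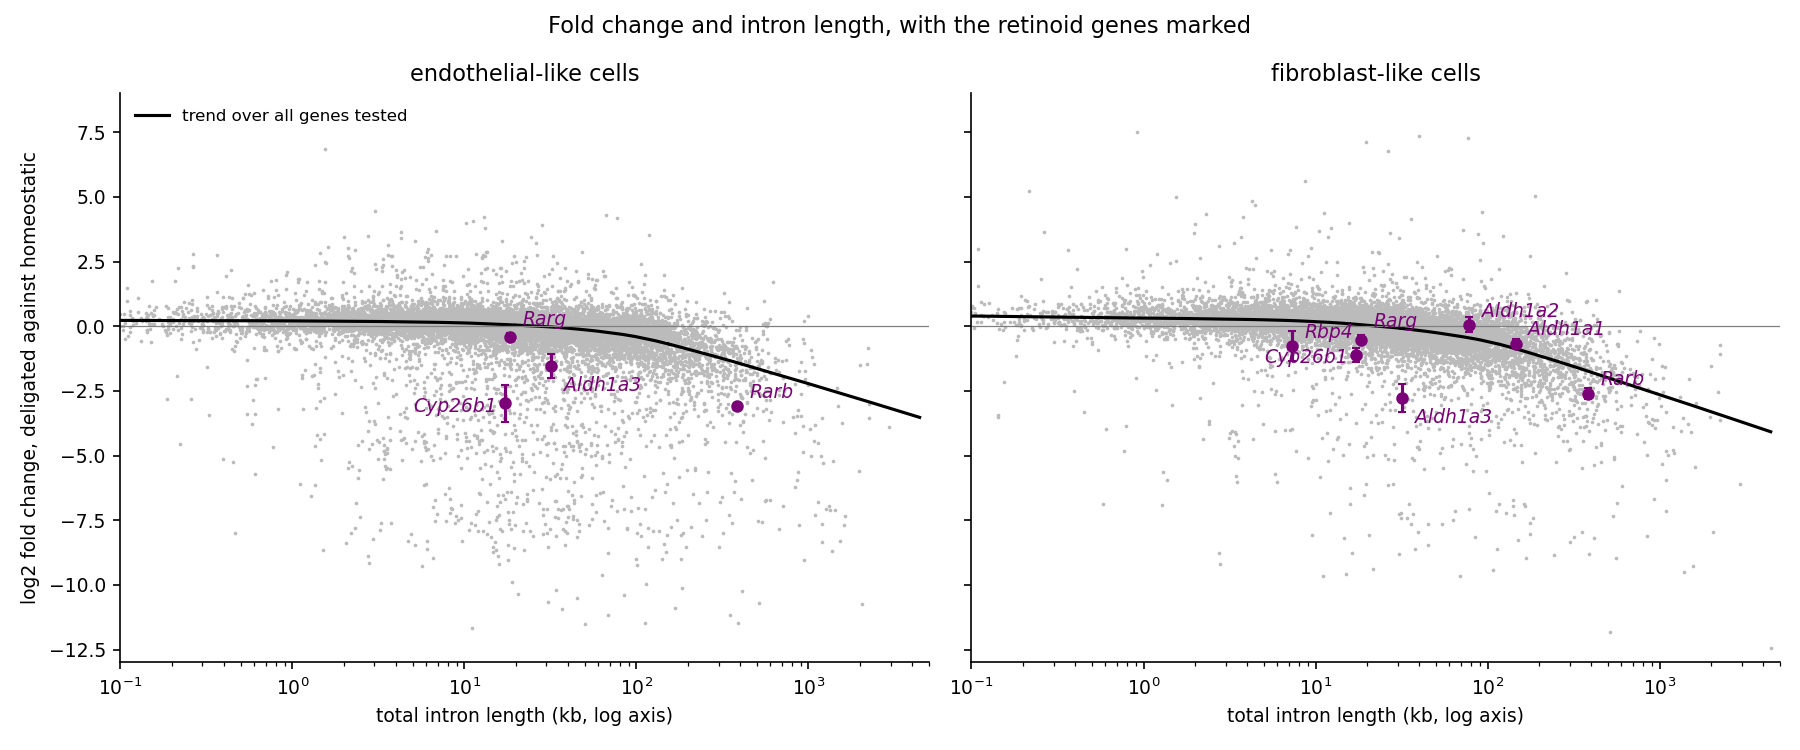
Log2 fold change, deligated against homeostatic, of every gene tested (grey) against total intron length (log axis) in endothelial-like and fibroblast-like cells, with the trend in black and the retinoid genes with their SE in purple; genes with under 0.1 kb of intron are not drawn. Cyp26b1 lies at 17.1 kb, where the trend is near 0, and Rarb at 383 kb, where the trend is strongly negative.

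Rarg, the third retinoic acid receptor gene, was mainly endothelial, with smaller fold changes than Cyp26b1 and Rarb in endothelial-like, fibroblast-like and mural-like cells. It was at 101 and 147 CPM in deligated and 170 and 165 CPM in homeostatic endothelial-like cells, a log2 fold change of -0.42 (SE 0.15), or -0.48 (SE 0.15) corrected for intron length. After thinning, 9.71% and 14.0% against 15.1% and 14.7% of these cells had a Rarg UMI. In fibroblast-like cells it was at 37.4 and 50.2 against 72.9 and 58.8 CPM, a log2 fold change of -0.53 (SE 0.17), or -0.59 (SE 0.17) corrected. Neither pair of groups overlapped, although deligated library 2 came close to the homeostatic libraries in both classes. Mural-like cells had 22.9 and 43.8 against 27.4 and 35.2 CPM, with overlap and a log2 fold change of 0.09 (SE 0.35), or -0.03 (SE 0.35) corrected. Among classes not fitted, both deligated libraries were higher in erythroid-like cells (73.0 and 91.7 against 38.5 and 42.0 CPM). The same held in epithelial-like (30.2 and 32.3 against 13.5 and 16.6 CPM) and unnamed cells (34.9 and 39.4 against 18.4 and 19.9 CPM). Macrophage-like cells went the other way (0 and 7.32 against 9.05 and 9.08 CPM), and Schwann-like groups overlapped.

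Lymphoid cells held Rarg at lower levels, 11.9 and 13.8 against 18.7 and 16.5 CPM in NK/innate lymphoid-like and 30.4 and 26.3 against 40.5 and 39.1 CPM in T cell-like cells. The direction in both classes depended on the processing: at a Leiden resolution of 2.0 the log2 fold changes went from -0.35 to 0.49 and from -0.37 to 0.22. The first was also 0.34 with the stricter cell filter and the second 0.38 with thinned cells. Corrected for intron length they were -0.43 and -0.49. Cluster 16, a T cell-like cluster led by Cd163l1 and Il17a, genes of γδ T cells that make interleukin 17, reached 69.1 and 123 CPM in the deligated libraries and 108 CPM in homeostatic library 2. The unnamed clusters 12 and 28, with Il1rl1 and Areg among their leading genes, both known from innate lymphoid cells of the type-2 kind, had 61.3 and 61.7 CPM (deligated) and 113 and 108 CPM (homeostatic). Differences between clusters were not tested.

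Counts of the 7 genes past the threshold of the fit over all genes (edgeR, adjusted p under 0.05) are given with the share of all genes tested that passed it, and nothing is read from them because the genes were chosen with this contrast known. In endothelial-like cells 3 of 4 genes tested passed, all lower in deligated cells, where 35.4% of all genes passed and 22.4% did so as lower. All 4 had both deligated libraries below both homeostatic ones, as did 37.8% of all genes. In fibroblast-like cells 5 of 7 passed as lower, against 27.6% and 18.6% of all genes, and the same number lay below without overlap, against 37.4%. In mural-like cells 2 of 4 passed as lower, against 7.39% and 6.27%, and 2 lay below without overlap, against 26.5%. The fibroblast count went to 1 without homeostatic library 1, 2 without homeostatic library 2, 3 with DESeq2 and 1 with thinned cells. The mural count went to 0 with the intron-length trend removed and with thinned cells, and to 1 with DESeq2, doublets kept, the stricter cell filter or without either homeostatic library. The endothelial count lay between 2 and 4 over the alternatives. Of the 2 genes tested in NK/innate lymphoid-like and the 2 in T cell-like cells, 0 passed, where 43.3% and 17.9% of all genes did. With doublets kept 2 passed in NK/innate lymphoid-like cells, and in each class 1 passed without deligated library 2. Without a filter on low counts 1 passed in T cell-like cells. In each of these classes Rarg lay below without overlap, as did 43.5% and 36.3% of all genes. The median log2 fold changes of the genes tested were -2.26 (endothelial-like), -0.76 (fibroblast-like) and -0.97 (mural-like), with medians over all genes of -8.13e-05, 0.0019 and 0.01. Filters on low counts let a gene in partly through the group where it is high, so these are the genes that could be tested and not all 7.

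The rest of the pathway was taken from a list of 41 retinoid genes by role, which were tested individually with edgeR's quasi-likelihood test, adjusted over all genes of a class. In endothelial-like cells 22 were tested, 3 rose and 2 fell, with a median log2 fold change of -0.01. In fibroblast-like cells 24 were tested, 4 rose and 2 fell, with a median of 0.04. In both classes 13.0% and 8.95% of all genes rose, and 22.4% and 18.6% fell, in that order. After correction for intron length 1 rose and 5 fell in endothelial-like cells (median -0.16), where 11.6% of all genes rose and 17.1% fell, and 2 rose and 5 fell in fibroblast-like cells (median -0.15), where 8.13% rose and 9.50% fell. The balance of rises and falls was not stable over other alternatives either. It was 3 and 4 with the stricter cell filter and 3 and 7 without deligated library 2 in endothelial-like cells, and 3 and 4 with doublets kept, 5 and 6 without deligated library 2 and 1 and 2 without homeostatic library 2 in fibroblast-like cells. The number of calls also moved with the libraries used, as it did over all genes. Without homeostatic library 1 the list had 0 calls by edgeR in endothelial-like cells (3 at an unadjusted p under 0.05, with 14.7% of all genes called) and 1 in fibroblast-like cells (11.5%). Without homeostatic library 2 it had 1 (14.8%) and 3 (11.5%). Without deligated library 1 it had 11 (56.8%) and 10 (43.5%), and without deligated library 2 it had 10 (56.0%) and 11 (39.2%). Cells thinned to equal depth gave 1 (23.2%) and 2 (19.2%). Dhrs9 in fibroblast-like cells passed under every alternative in which it was tested, and with thinned cells it was not. In mural-like cells 0 of 18 passed and in T cell-like cells 0 of 13 (edgeR), with 2 and 1 at an unadjusted p under 0.05 and 0 in each by DESeq2.

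In fibroblast-like cells Crabp1, a carrier of retinoic acid inside cells, was at 187 and 291 against 552 and 381 CPM and was lower, at -0.91 ± 0.21 (SE) on the log2 scale and an adjusted p of 0.0099 by edgeR. Crabp1 was at most 11.5 CPM in any other class and library. Without homeostatic library 1 it did not pass, at an adjusted p of 0.167 by edgeR, the highest of a range over the alternatives that began at 4.97e-19.

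Rdh10, which makes retinal from retinol, was at 21.5 and 19.4 against 14.3 and 11.02 CPM (fibroblast-like) and rose, at 0.74 ± 0.24 (SE) on the log2 scale and an adjusted p of 0.0416 by edgeR. Over the alternatives its adjusted p lay between 0.00353 and 0.27, and it did not pass after correction for intron length (0.0564, edgeR) or by DESeq2 (0.239). Dhrs9, another enzyme of the same step, counted 2 and 0 UMIs (deligated) against 14 and 14 (homeostatic) and fell (edgeR adjusted p 0.00101), with a fitted log2 fold change of -5.07 (SE 0.78) that depends on these few counts. Dhrs3, which returns retinal to retinol, was at 60.3 and 124 against 163 and 120 CPM and did not pass (log2 fold change -0.56, SE 0.27, edgeR adjusted p 0.153). Over the alternatives its adjusted p lay between 1.1e-13, without deligated library 2, and 0.58, without homeostatic library 1.

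Of the receptors in fibroblast-like cells, Rxra was at 37.6 and 37.2 against 26.0 and 26.8 CPM and rose, at 0.56 ± 0.17 (SE) on the log2 scale and an adjusted p of 0.0373 by edgeR. Rara was at 49.7 and 46.5 against 48.4 and 46.2 CPM, at 0.08 ± 0.15 (SE) on the log2 scale and an adjusted p of 0.742 by edgeR. Nr2f1, an orphan nuclear receptor often described as a retinoic acid target, was at 352 and 455 against 297 and 270 CPM and rose, at 0.56 ± 0.14 (SE) on the log2 scale and an adjusted p of 0.0146 by edgeR. Corrected for intron length Rxra was at 1.03 ± 0.17 (SE). It did not pass by DESeq2 (adjusted p 0.229, range over the alternatives 0.00295 to 0.782), nor did Nr2f1 after correction for intron length (adjusted p 0.151 by edgeR, range 9.02e-09 to 0.227).

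In endothelial-like cells the changes past the threshold were mostly small. Fabp5, a fatty acid-binding protein that can also carry retinoic acid, was at 299 and 283 against 414 and 407 CPM and fell, at -0.47 ± 0.09 (SE) on the log2 scale and an adjusted p of 0.0115 by edgeR. Dhrs4 was at 15.8 and 18.1 against 22.1 and 23.4 CPM and fell, at -0.40 ± 0.10 (SE) on the log2 scale and an adjusted p of 0.0263 by edgeR. Rxra was at 39.0 and 45.1 against 34.8 and 32.5 CPM and rose, at 0.34 ± 0.09 (SE) on the log2 scale and an adjusted p of 0.0292 by edgeR. Rara, Rdh10 and Dhrs3 did not pass, at log2 fold changes of 0.14, 0.21 and -0.22 (edgeR adjusted p 0.386, 0.34 and 0.469). By DESeq2 Dhrs4 and Rxra did not pass (adjusted p 0.134 and 0.1004), and over the alternatives the highest adjusted p was 0.145 for Fabp5, 0.249 for Dhrs4 and 0.301 for Rxra, with lowest values of 1.07e-25, 0.00051 and 4.4e-06.

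Rarres2 and Nr2f1 also rose in endothelial-like cells, but from very low levels. Rarres2, which encodes the secreted protein chemerin, was at 1.30 and 3.07 against 0.275 and 0.697 CPM (log2 fold change 2.18, SE 0.59, edgeR adjusted p 0.0317). Nr2f1 was at 1.30 and 2.49 against 0.412 and 0.837 CPM (log2 fold change 1.62, SE 0.48, edgeR adjusted p 0.0442). Neither passed after correction for intron length (edgeR adjusted p 0.0514 for Rarres2 and 0.0689 for Nr2f1), and Nr2f1 did not pass by DESeq2 (adjusted p 0.103). Over the alternatives the adjusted p lay between 1.68e-08 and 0.184 for Rarres2 and between 3.66e-05 and 0.309 for Nr2f1. Rarres2 was at 435 to 572 CPM in fibroblast-like and 526 to 748 CPM in mural-like cells. The summed fibroblast markers in endothelial-like cells were 53.1 and 137 CPM in the deligated and 19.8 and 19.1 CPM in the homeostatic libraries, with 1 of 9 at 0 in homeostatic library 1. Summed mural markers, all 11 with UMIs, were 77.2 and 92.3 against 47.5 and 32.6 CPM. The part of these markers' cells in both calls was not tested.

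Among NK/innate lymphoid-like cells 3 of the 18 genes tested passed, against 43.3% over all genes. Rara was at 18.4 and 19.2 against 32.8 and 33.8 CPM and fell, at -0.73 ± 0.12 (SE) on the log2 scale and an adjusted p of 0.00205 by edgeR. That direction turned with the stricter cell filter (0.0089, adjusted p 0.964 by edgeR) and at a Leiden resolution of 2.0 (0.071, adjusted p 0.728), and over the alternatives the adjusted p lay between 7.59e-08 and 0.964. Dhrs4 fell (-0.42, SE 0.14, edgeR adjusted p 0.0404) and Rxrb, a retinoid X receptor, rose (0.64, SE 0.13, edgeR adjusted p 0.00648). Both calls were lost under several alternatives, among them DESeq2.

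**Figure D5:**
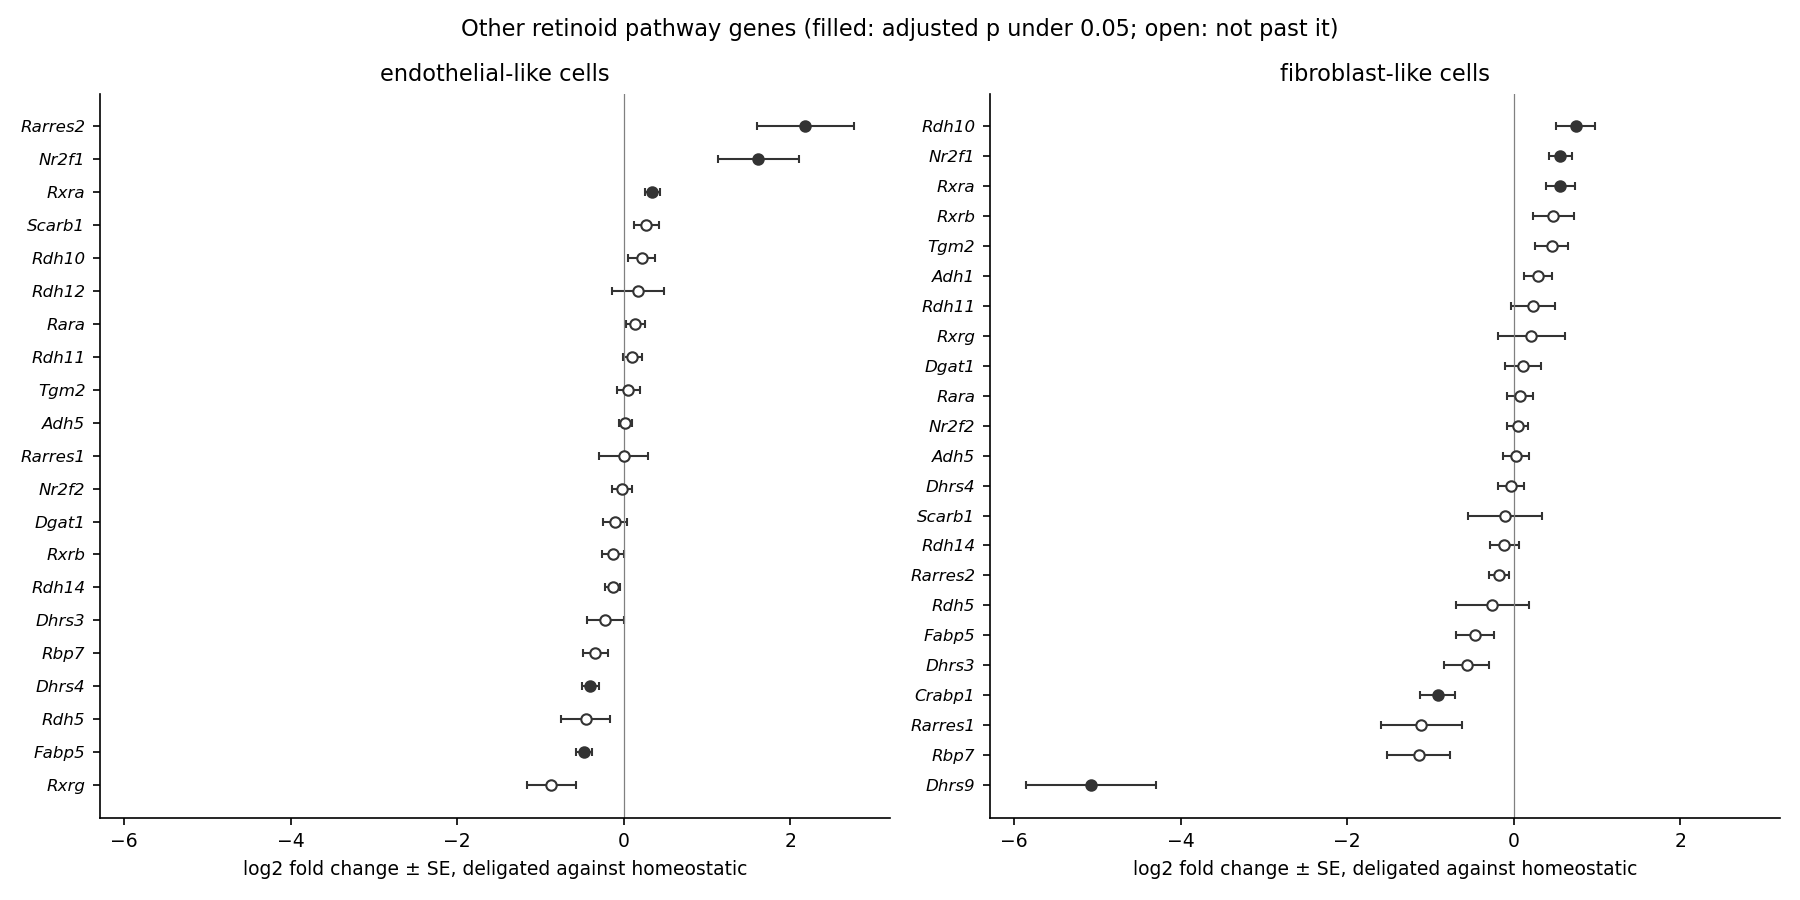
Log2 fold change with SE, deligated against homeostatic, of 21 and 23 other retinoid genes tested in endothelial-like and fibroblast-like cells, filled where the edgeR adjusted p is under 0.05. Most points lie near 0, with Dhrs9 at -5.07 in fibroblast-like cells and Rarres2 at 2.18 in endothelial-like cells the farthest out among those filled.

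Genes with the most similar distribution were sought over 32 sums of UMIs by class and library with at least 50 cells, among 13621 genes, as Pearson correlations of log2(CPM + 1). The points share libraries and depth, so the values only describe likeness. Cyp26b1 was most like Hmcn1 (r = 0.915), Ptprm (0.90) and Plekhg1 (0.899). Rarg was most like Tanc1 (0.911), Prpf40b (0.907) and Ppm1f (0.889). Rarb was most like Adamtsl1 (0.924), Pard3b (0.923) and Ppp1r3c (0.918), and Aldh1a1 like Sfrp1 (0.908), Fst (0.90) and Efs (0.896). The nearest genes to Aldh1a2 were Il1rl2 (0.873), Adam33 (0.857) and Lpl (0.82), and to Aldh1a3 Xkr4 (0.853), Sgcd (0.832) and Gpt2 (0.802). Among the 7 themselves the highest values were between Cyp26b1 and Rarg (0.691) and between Aldh1a1 and Aldh1a3 (0.679). Rbp4 had too few UMIs for this comparison.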

How the data were processed

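UMI counts per gene and cell barcode in 4 libraries were used as the authors deposited them. The matrix headers name Cell Ranger 6.0.1 (deligated) and 7.0.0 (homeostatic), whereas the submitters' processing notes name Cell Ranger 6.0.1, Seurat and mm10. Whether introns or strand were used in counting is not given in the sources used here. Of the gene identifiers, 31011 of 31053 (99.9%) matched GENCODE M21. The 7 genes and all lists, markers and tests were chosen with earlier results of these data known.

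Cells with at least 300 genes and at most 10% mitochondrial UMIs were kept, the highest-scoring doublets were removed at 0.8% per 1000 cells, and clusters were made with scanpy 1.11.5 (3000 variable genes without the retinoid genes, 30 components, 20 neighbours, Leiden resolution 1.0, no batch correction). A class needed at least 3 markers in at least 10% of a cluster's cells at 2.0-fold or more over other cells, with naming details set after clusters were seen. Counts summed per class and library were fitted with edgeR 4.0.16 (quasi-likelihood, TMM, filterByExpr), deligated against homeostatic, in classes with at least 100 cells in every library, with Benjamini-Hochberg adjustment over the class and a threshold of 0.05. With 2 libraries a group an exact permutation test cannot go below p = 0.333 and was not used. The 7 genes are described in the classes named and not in every class where they had at least 10 UMIs. Of the 41 listed genes, up to 4 per direction and class past the threshold are named. Rara, Rxra, Rdh10, Dhrs3, Crabp1 and Crabp2 are named where tested. Crabp2 had too few UMIs. One gene of the list is included in its counts and medians and is not reported here. In simulated counts 200 genes were changed by a log2 fold change of 2. Of those that were tested, the fit recovered 98.0% in endothelial-like, 97.0% in fibroblast-like, 91.9% in mural-like, 99.0% in NK/innate lymphoid-like and 97.5% in T cell-like cells. Of its calls 4.85%, 2.53%, 6.67%, 3.88% and 3.48% were false, in that order. The simulation gave every gene the same dispersion and had no trend over intron length. These shares check the code and do not give the power or error rate in the real data. Alternatives covered DESeq2 1.42.0, scaling, filters, clustering, doublets, depth, replicate block, intron-length trend and each library left out. Intervals are exact (Clopper-Pearson).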

Additional observations from a re-analysis of the deposited data

How the results depend on the processing

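The 19 fold changes of the 7 genes gave 234 values under the other settings. Of these, 200 stayed within the spread between replicate libraries and 33 moved beyond it. Among the fold changes past the threshold 1 changed sign, Aldh1a1 in fibroblast-like cells, to 0.19 with the intron-length trend removed. Another 11 values changed sign among 6 fold changes not past it: Aldh1a2 in fibroblast-like, Aldh1a1 in mural-like, Rarg in mural-like, NK/innate lymphoid-like and T cell-like, and Cyp26b1 in T cell-like cells. Of 178 values for the 14 calls of the wider list, 128 stayed past the threshold, 48 lost it, and Rara in NK/innate lymphoid-like cells turned (0.071 at Leiden resolution 2.0, 0.0089 with the stricter cell filter). The number of listed genes called in endothelial-like cells (5) went to 2 with DESeq2 and 1 with thinned cells. In fibroblast-like cells (6) it went to 2 with thinned cells. In NK/innate lymphoid-like cells (3) it went to 1 with DESeq2, 5 without a filter on low counts and 0 with thinned cells. In mural-like cells (0) it went to 1 with DESeq2 size factors, 1 with doublets kept and 2 without a filter, and in T cell-like cells (0) to 1 without a filter and 1 with the stricter cell filter. With each library left out in turn the counts ranged from 0 to 11 in endothelial-like, 1 to 11 in fibroblast-like, 0 to 2 in mural-like, 1 to 7 in NK/innate lymphoid-like and stayed at 0 in T cell-like cells. Where 1 library remained in a group it is assumed to vary like the other group. The cause of these shifts was not tested.

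The labels' replicate numbers do not state a pairing. Same-numbered libraries had deviations correlated at -0.12 in endothelial-like, 0.0069 in fibroblast-like, 0.042 in mural-like, -0.21 in NK/innate lymphoid-like and -0.11 in T cell-like cells. With the replicate block the counts of listed genes called were 5, 8, 2, 2 and 0 in that order, and the 2 added in fibroblast-like cells were Dhrs3 and Rbp7. A crossed pairing, added after the data were seen for the 3 classes with a correlation under -0.1, gave 5, 4 and 1, and called 1 of the 7 genes in each of the 2 lymphoid classes.

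At Leiden resolution 2.0, 67 of 70 group levels of the 7 genes stayed within their SD. Without thinning, 56 of 70 shares of cells with a UMI moved by more than their SD, so shares were compared only after thinning. With 2 libraries a group and between 9 and 72 UMIs a library for Rbp4, Aldh1a2 and Aldh1a3 in fibroblast-like cells, small differences in these genes were not detectable at this depth.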
